A study of Homo sapiens with 8 samples.

Results

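The aminoacyl-tRNA synthetases were taken by gene name from the gene table of LP-1 cells, a human myeloma line: every symbol made of 1 letter, ARS and an optional final 1 or 2, together with EPRS, FARSA and FARSB. This gave 37 of the 18564 genes listed. The 17 whose names end in 2 were counted as mitochondrial and the other 20 as cytosolic. All 37 passed the filter on low counts in every comparison. RNA was sequenced from wild-type LP-1 cells (WT) and from bortezomib-resistant LP-1 cells (BR). WT cells received DMSO as vehicle or SI-2, a small-molecule inhibitor of the coactivator SRC-3, at 25 nM for 24 h. BR cells were labelled as kept in bortezomib, a proteasome inhibitor, for 2 months, and received the same vehicle or the same dose and time of SI-2. Each of the 4 conditions had 2 libraries, so that BR and WT were compared over 4 libraries each. BR is a single derived line, and whether it is a clone is not given in the sources used here. Whether bortezomib was present when the BR cells were harvested is not given there either. The study describes the vehicle and SI-2 data of BR cells as coming from independent experiments, while the labels do not say whether the 2 libraries of a condition came from separate cultures. The p-values measure the spread between these libraries.

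The libraries held 17997771 to 18570027 estimated counts. Of 9 listed plasma cell genes, mean FPKM was 497 for XBP1, 444 for MZB1, 283 for TNFRSF17 and 175 for IRF4. PRDM1 and CD38 were at 49.6 and 41.4. SDC1 was lower at 7.79, CD27 at 1.94 and SLAMF7 at 0.421. The genes of the translocation that LP-1 carries, NSD2 and FGFR3, had mean FPKM of 89.4 and 245. The second BR SI-2 library stood apart in fibroblast and epithelial markers among those listed for other cell types. The monocyte marker LYZ was 3.13 FPKM there and 3.17 in the first BR SI-2 library. CD3E, CD2, CD14 and CSF1R were at most 0.11 in every library. The 11 listed markers summed to 23.3 FPKM in the second BR SI-2 library and to 3.29 to 4.72 in the other 7. COL1A1 was at 9.84 against at most 0.07, DCN at 3.74 against at most 0.03 and EPCAM at 0.84 against at most 0.03. Fold changes of the classes and of the genes described in detail were also computed without the second BR SI-2 library.

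Aminoacyl-tRNA synthetases attach each amino acid to its own tRNA, which is the step that matches the genetic code to protein sequence. Most amino acids are served by a cytosolic enzyme and by a separate mitochondrial enzyme, both encoded in the nucleus, and the mitochondrial enzymes charge the tRNAs of the mitochondrial genome. In the cytosol 8 of the listed enzymes (DARS, EPRS, IARS, KARS, LARS, MARS, QARS and RARS) join scaffold proteins in the multisynthetase complex. GARS and KARS each encode both a cytosolic and a mitochondrial form, EPRS charges glutamate and proline, and FARSA and FARSB are subunits of a single enzyme. QARS has no mitochondrial counterpart in the list, since mitochondria make glutaminyl-tRNA by another route. Many cytosolic genes of the family are known targets of ATF4, the transcription factor of the amino acid response. Myeloma cells secrete large amounts of antibody protein and have a high demand for charged tRNA.

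The cytosolic transcripts were far more abundant than the mitochondrial ones. Per length, as FPKM averaged over the 8 libraries, cytosolic genes ran from 28.3 for RARS, the arginine enzyme, to 352 for GARS, the glycine enzyme, with a median of 108. All 20 lay at or above the 84.3rd percentile of all genes. Of the mitochondrial genes, WARS2, the tryptophan enzyme, was the lowest at 2.27, TARS2, a threonine enzyme, was at 62.5, and the median was 10.1. The ratio of the highest to the lowest library, in CPM (counts scaled to library size with TMM factors), had a median of 1.56 over the cytosolic genes, with WARS the widest at 2.23. Over the mitochondrial genes the median was 1.48, with WARS2 the widest at 2.01. Over the 10027 genes in the same range of mean CPM the median was 1.47.

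Pairs of enzymes for 1 amino acid gave a ratio of cytosolic to mitochondrial FPKM in every library. In each of the 17 pairs described the cytosolic gene was the higher in all 8 libraries, and the median over these pairs was 11.5. The ratio was the widest for tryptophan, where WARS stood between 63.2 and 99.4 times WARS2. Among them it was narrowest for threonine, where TARS stood between 1.26 and 3.36 times TARS2. Of these 17, the methionine enzymes were the only pair whose ratios did not overlap between the lines. MARS was 19.2 to 22.3 times MARS2 in the 4 WT libraries and 12.9 to 18 times in the 4 BR libraries. As a background for single genes, the CPM of the 4 BR libraries lay wholly above those of the 4 WT libraries for 3.78% of all genes and wholly below for 4.36%, and no such share was computed for ratios.

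**Figure D1:**
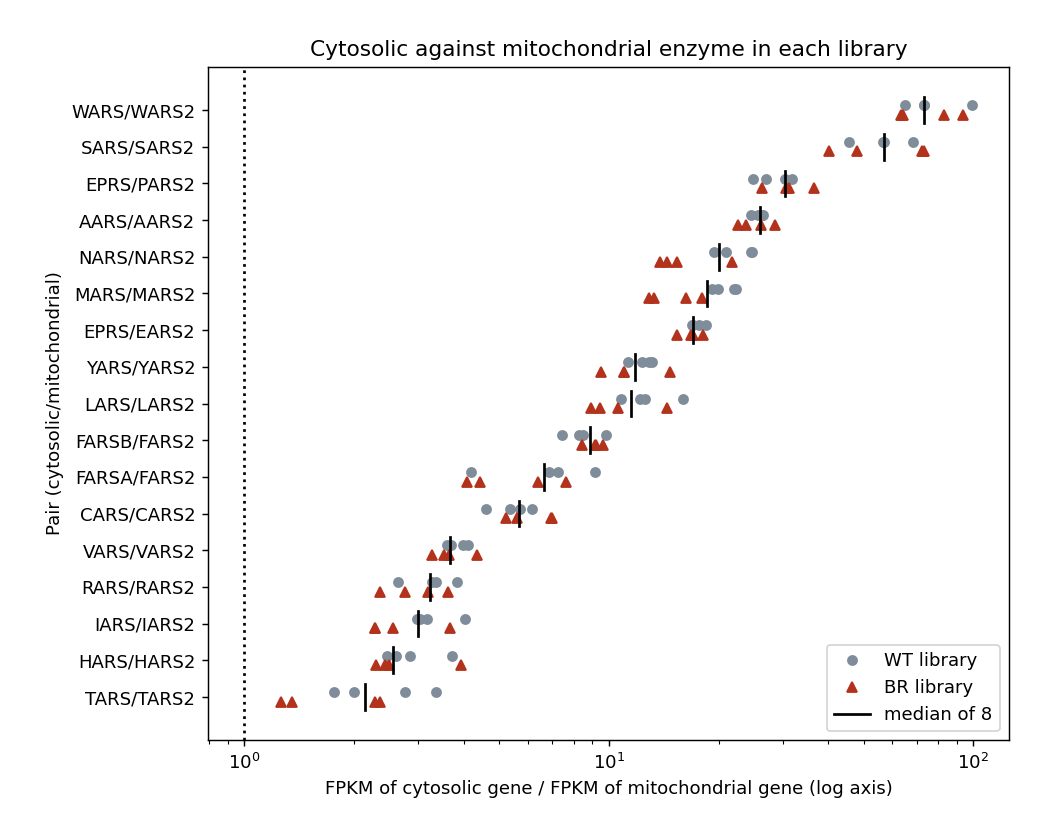
FPKM of the cytosolic gene divided by FPKM of its mitochondrial counterpart for 17 pairs, on a log axis, with 1 point for each of 4 WT and 4 BR libraries and a bar at the median. All points lie above 1, and MARS/MARS2 is the only pair drawn in which the WT and BR points do not overlap.

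Across the libraries the cytosolic class went up and down together, and the mitochondrial class less so. The summed FPKM of the 20 cytosolic genes was 2741 and 2832 in the WT vehicle libraries and 2444 and 2732 with SI-2. It was 2909 and 2150 in the BR vehicle libraries and 2381 and 2090 with SI-2. The highest and the second lowest sums were thus the first and the second library of the same condition, BR with vehicle. The 17 mitochondrial genes summed to 301.7 and 250.8 in WT vehicle, and 293.1 and 261.9 in WT SI-2. The sums of vehicle-treated BR cells were 309.9 and 299.5, and those of SI-2-treated BR cells 289.2 and 304.2. The highest sum was 1.39 times the lowest for the cytosolic class and 1.24 times for the mitochondrial class. The ratio of the sums ran from 6.87 in the second BR SI-2 library to 11.3 in the second WT vehicle library, and the lines overlapped.

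**Figure D2:**
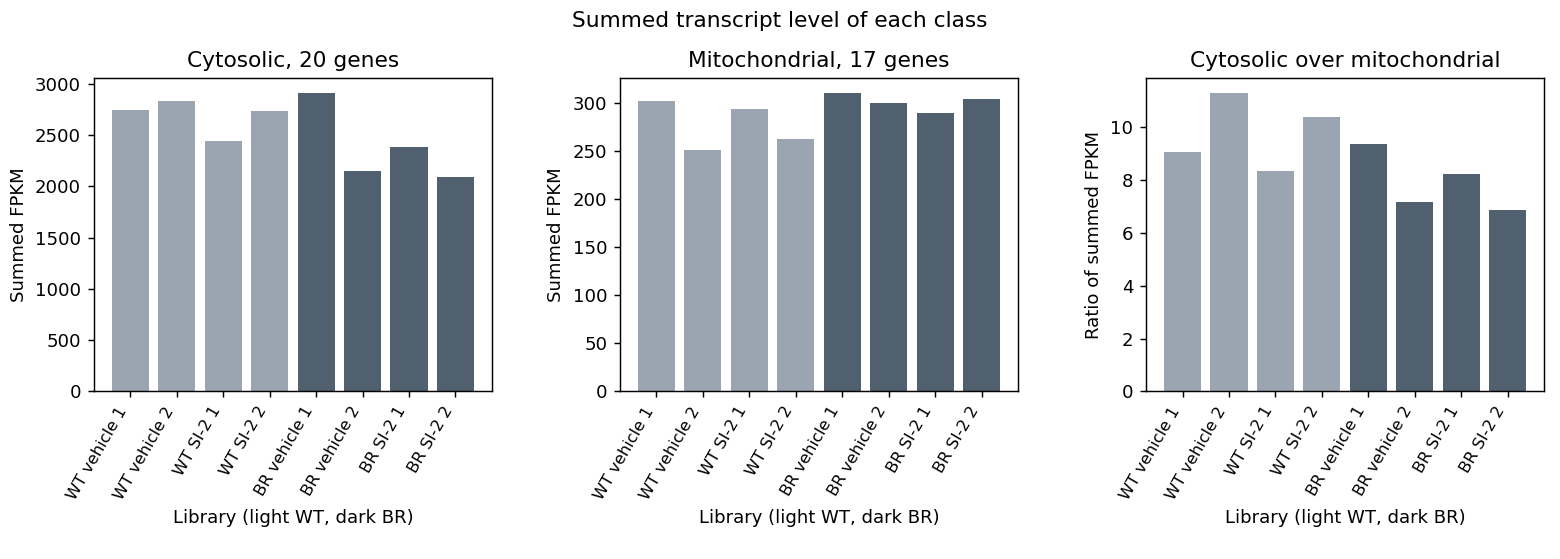
Summed FPKM of the 20 cytosolic genes, of the 17 mitochondrial genes and their ratio in each of the 8 libraries (light bars WT, dark bars BR; single values, no error bars). The cytosolic sum runs from 2090 to 2909, with the first BR vehicle library highest and the second BR SI-2 library lowest.

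Gene by gene the pattern was shared by most of the cytosolic enzymes. Of 20 cytosolic genes, 18 were above their own 8-library median CPM in the first BR vehicle library and 2 in the second, and 5 and 2 in the BR SI-2 libraries. In WT cells the numbers were 17 and 15 with vehicle and 5 and 16 with SI-2. The second BR SI-2 library, the one with fibroblast and epithelial markers, was the lowest of all 8 for 13 cytosolic genes. Among the other 7 libraries the second BR vehicle library was the lowest for 14. Of the 17 mitochondrial genes, 11 and 8 were above their median in WT vehicle, 8 and 8 in WT SI-2, 14 and 6 in vehicle-treated BR, and 8 and 5 in SI-2-treated BR. Several genes ran the other way from most of their class. In log2 CPM, cytosolic DARS and FARSB were higher in the second BR vehicle library than in the first, by 0.26 and 0.093. Of the 17 mitochondrial genes 6 were higher there, among them TARS2, NARS2, LARS2 and FARS2, by 0.35, 0.11, 0.11 and 0.075.

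**Figure D3:**
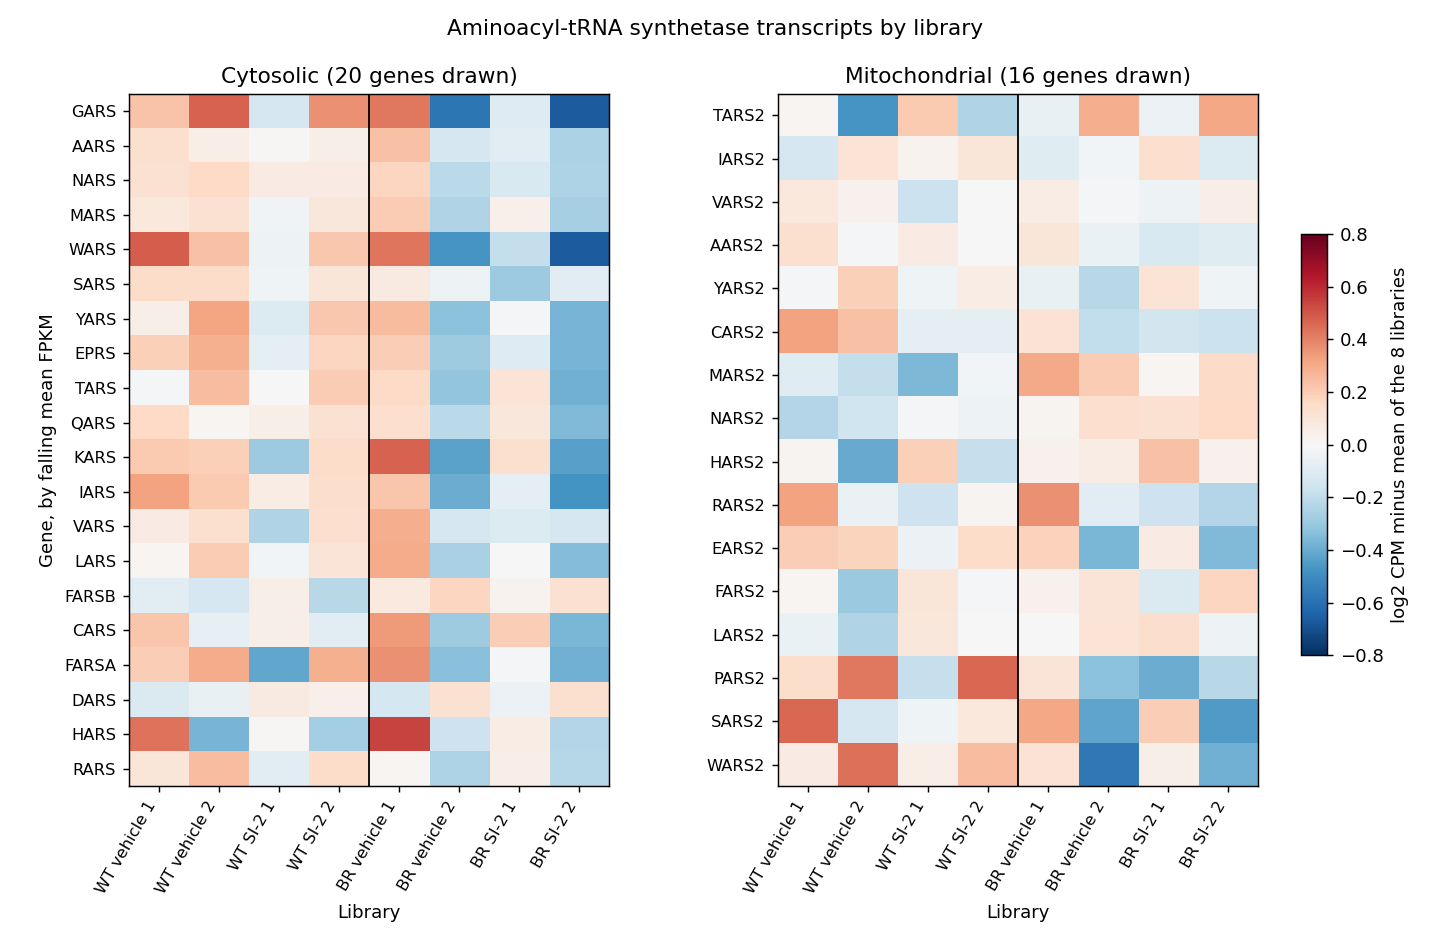
log2 CPM of 20 cytosolic and 16 mitochondrial synthetases, each minus its own mean over the 8 libraries (colour), with genes in rows by falling mean FPKM, libraries in columns and a line between WT and BR. Most cytosolic genes are high in the first BR vehicle library and low in the second BR vehicle and second BR SI-2 libraries, while DARS, FARSB and TARS2 are not.

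The spread between libraries of 1 condition was therefore wide against the differences between conditions. Within BR vehicle the second library was lower than the first for 18 of 20 cytosolic genes, with a median log2 difference of -0.48. Within BR SI-2 it was lower for 17 of 20, with a median of -0.33. In WT cells the medians were 0.039 with vehicle and 0.13 with SI-2, where 15 of 20 genes were higher in the second library. The mitochondrial medians were -0.15 and -0.072 in BR and -0.096 and 0.061 in WT. They were smaller in size than the cytosolic ones except in WT vehicle. GARS showed the widest gap, with FPKM of 442 and 236 in the BR vehicle libraries and 311 and 227 with SI-2. Its FPKM was 389 and 466 in WT vehicle and 312 and 432 in WT SI-2. Subunits of the same enzyme did not keep a fixed ratio either. FARSA divided by FARSB was 0.827, 0.931, 0.491 and 0.975 in the WT libraries (vehicle, then SI-2) and 0.832, 0.478, 0.664 and 0.484 in the BR libraries. FARSA ran from 32.3 to 53.5 FPKM and FARSB from 52.7 to 73.3.

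The first comparison asked how BR cells differed from WT cells over both treatments. No synthetase passed the edgeR test at an adjusted p under 0.05, where 0.362% of the 13520 genes tested were called. At an unadjusted p under 0.05 there were 5 of 37 (PARS2, IARS, MARS2, NARS2 and FARSB), or 2 cytosolic and 3 mitochondrial genes, against 14.4% of all genes. This count rested on single libraries. It was 16 without the first BR vehicle library, 9 without the first WT SI-2 library, 2 without the first WT vehicle library, and 1 when the second library of any condition was left out. The 14.4% belongs to the fit of all libraries, and no share of all genes is given for the fits with a library left out. DESeq2 and limma called 0 synthetases as well. BR minus WT, in log2 CPM as fitted, was on the lower side for 17 of 20 cytosolic genes, with a median of -0.17, and for 9 of 17 mitochondrial genes, with a median of -0.050. Over all genes 49.1% were on the lower side and the median was 0.0042. Leaving out a library moved the cytosolic median to -0.082 (second BR SI-2), -0.106 (second BR vehicle) or -0.26 (first BR vehicle). The mitochondrial median turned to 0.050 without the first WT vehicle and to 0.010 without the second BR SI-2 library, and came nearer to 0, to between -0.031 and -0.0093, without any of 5 others (second WT vehicle, second WT SI-2, both BR vehicle and first BR SI-2). The difference between the classes was not tested.

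MARS2 and NARS2, the mitochondrial methionine and asparagine enzymes, were the members whose 4 BR libraries all lay above the 4 WT libraries. Beside this count stands the 3.78% of all genes with such a gap, and no synthetase had its 4 BR libraries all below, against 4.36%. The CPM of MARS2 was 29.5 and 27.6 in WT vehicle, 24.6 and 31.0 in WT SI-2, 38.9 and 36.3 in vehicle-treated BR, and 31.9 and 35.0 in SI-2-treated BR. Its BR libraries were thus all higher, by 0.34 ± 0.11 in log2 fold change (SE, 4 libraries a side, edgeR adjusted p = 0.215). The CPM of NARS2 was 19.7 and 20.8 in WT vehicle, 23.1 and 22.6 in WT SI-2, 23.6 and 25.5 in vehicle-treated BR, and 25.3 and 25.9 in SI-2-treated BR. The gap between the lines was narrow, from 23.1 to 23.6, and the log2 fold change was 0.22 ± 0.097 (edgeR adjusted p = 0.338). PARS2, the mitochondrial proline enzyme, had overlapping groups, with CPM of 11.3, 13.7, 9.02 and 14.1 in the WT and 11, 8.17, 7.78 and 8.79 in the BR libraries. Its log2 fold change was -0.43 ± 0.17 (edgeR adjusted p = 0.302), on 142 to 253 counts a library. Without the second BR SI-2 library the log2 fold changes of MARS2, NARS2 and PARS2 were 0.34, 0.20 and -0.42.

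Of the cytosolic genes, IARS, FARSB and EPRS had the smallest unadjusted p-values. The CPM of IARS, the isoleucine enzyme, was 508 and 469 in WT vehicle, 423 and 448 in WT SI-2, 474 and 309 in vehicle-treated BR, and 385 and 291 in SI-2-treated BR. The first BR vehicle library lay within the WT range and the other 3 BR libraries below it, and the log2 fold change was -0.34 ± 0.15 (edgeR adjusted p = 0.326). EPRS, the enzyme of glutamate and proline, showed the same arrangement, with CPM of 655, 699, 544 and 648 in WT and 658, 473, 535 and 444 in BR. Its log2 fold change was -0.27 ± 0.13 (edgeR adjusted p = 0.375). FARSB was on the other side, with CPM of 122, 118, 134 and 111 in WT and 137, 146, 132 and 141 in BR. Its groups overlapped at a single pair of libraries, and the log2 fold change was 0.20 ± 0.090 (edgeR adjusted p = 0.342). GARS and WARS had the most negative cytosolic fold changes, -0.41 ± 0.22 and -0.40 ± 0.21, with edgeR adjusted p-values of 0.429 and 0.422. Both moved with single libraries. They were -0.68 and -0.67 without the first BR vehicle library, and -0.28 and -0.26 without the second BR SI-2 library. Leaving out the latter gave -0.25 for IARS, -0.20 for EPRS and 0.19 for FARSB. The other members were spread between -0.38 for WARS2 and 0.24 for TARS2. By role, the 8 genes of the multisynthetase complex had a median of -0.15 with 7 below 0, and the 12 outside it a median of -0.18 with 10 below 0. Without the second BR SI-2 library these medians were -0.069 and -0.10.

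**Figure D4:**
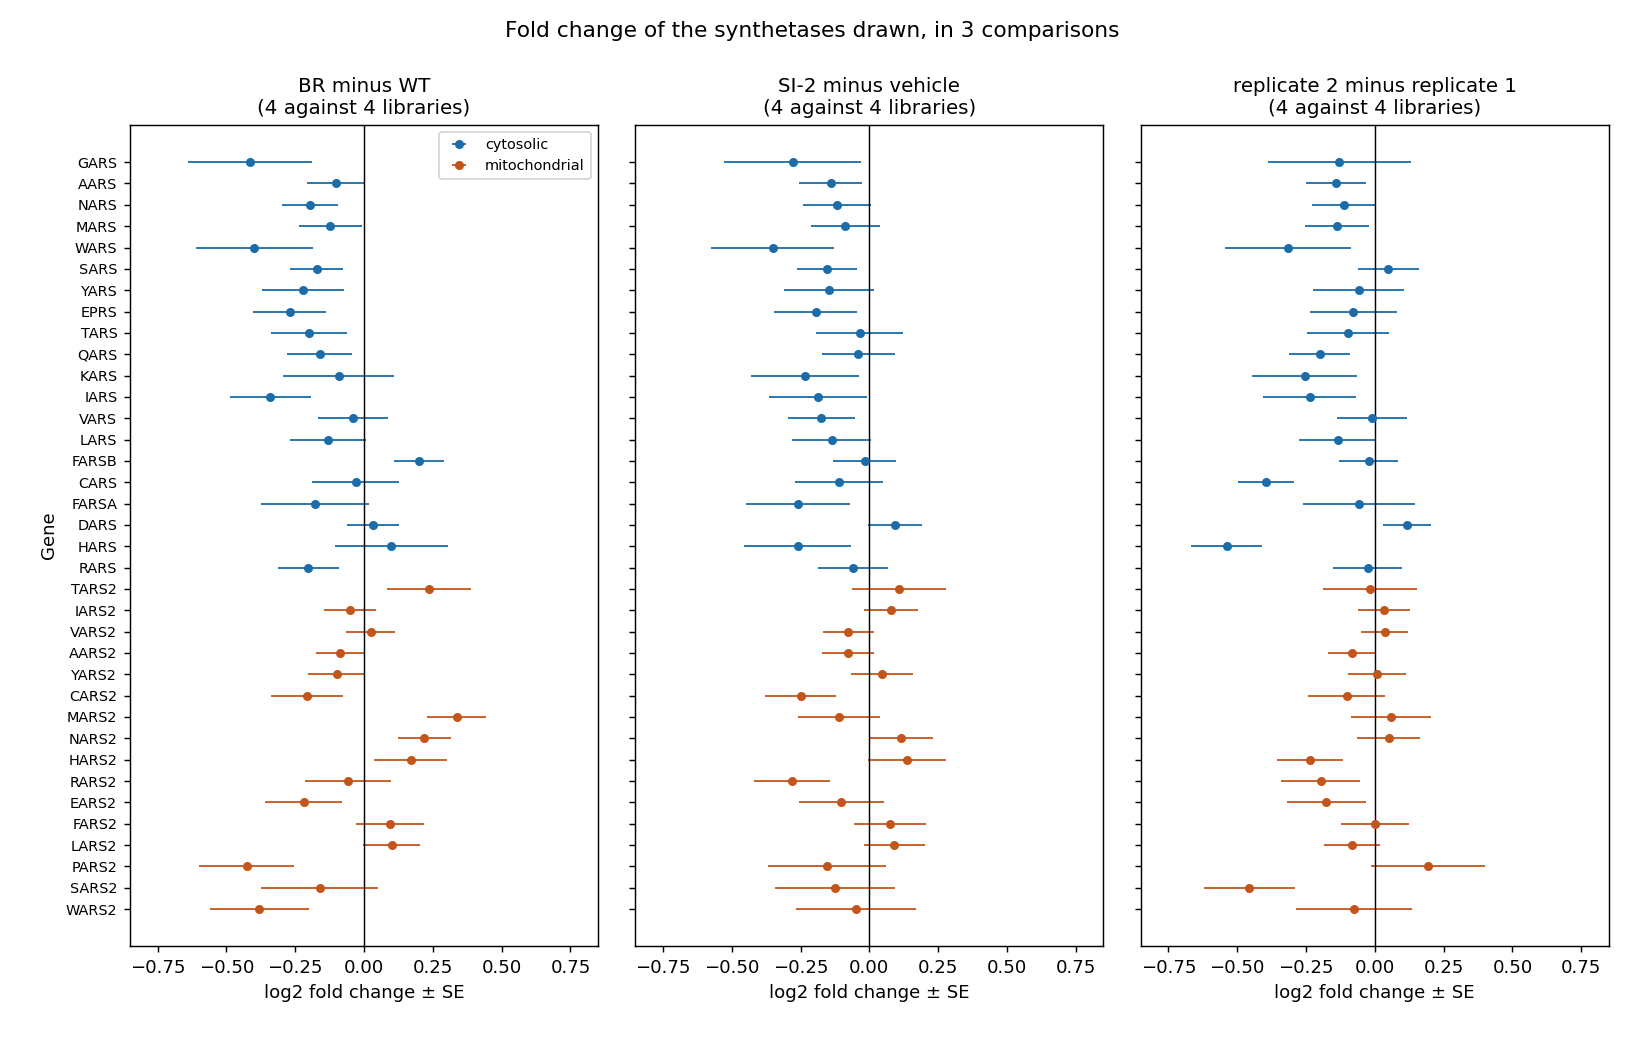
log2 fold change ± SE (edgeR, 4 against 4 libraries) of 20 cytosolic and 16 mitochondrial genes for BR against WT, SI-2 against vehicle and replicate 2 against replicate 1. No gene passed an adjusted p of 0.05 in any panel. MARS2 is the highest in the left panel, and HARS, SARS2 and CARS are the lowest of those drawn in the right panel.

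Within each treatment the comparison of BR with WT rested on 2 libraries a side. No synthetase was called with vehicle, where 0% of 13896 genes were called, or with SI-2, where 0.0072% were. At an unadjusted p under 0.05 edgeR gave 1 synthetase with vehicle (MARS2) and 0 with SI-2, against 3.89% and 4.09% of all genes, and DESeq2 called 0 in both. MARS2 had log2 fold changes of 0.40 ± 0.17 with vehicle (edgeR adjusted p = 0.967) and 0.27 ± 0.17 with SI-2 (edgeR adjusted p = 0.998). The cytosolic medians were -0.13 with vehicle and -0.19 with SI-2, and the mitochondrial medians -0.037 and -0.0093. With vehicle the cytosolic median was -0.36 when the first BR library was left out and 0.064 when the second was, and the mitochondrial median was 0.129 without the first WT and 0.117 without the second BR library. With SI-2 the cytosolic median was -0.36 or -0.051 when the first or the second BR library was left out, and -0.115 when the second WT library was. These values share libraries with the comparison over both treatments.

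SI-2 was compared with vehicle to ask whether inhibition of SRC-3 moved the synthetases. Over both lines no synthetase was called, and 0% of all genes were. This fit held no term for the line, so differences between the lines counted as spread. A fit with that term called no synthetase either. At an unadjusted p under 0.05 edgeR gave 0 of 37 synthetases against 2.22% of all genes, and DESeq2 and limma called 0. No synthetase had groups without overlap, against 0.666% of all genes on the higher and 0.777% on the lower side. The log2 fold change was on the lower side for 19 of 20 cytosolic genes, all but DARS, with a median of -0.14, and for 10 of 17 mitochondrial genes, with a median of -0.076. Over all genes 49.9% were on the lower side. The standard errors of the 37 genes ran from 0.092 to 0.25, and 13 of the 37 fold changes were larger than their own standard error. The extremes were -0.35 ± 0.22 for WARS and 0.14 for HARS2. RARS2, the mitochondrial arginine enzyme, at -0.28 ± 0.14 (edgeR adjusted p = 0.999), was the 1 gene past 2 standard errors. Leaving out the second BR SI-2 library gave a cytosolic median of -0.067, the first BR vehicle library -0.089, and the second -0.22. The mitochondrial median was -0.0077 without the second BR SI-2, -0.033 without the first BR vehicle, -0.034 without the first WT SI-2 and -0.038 without the second WT vehicle library. Omitting the second BR vehicle library raised the count at an unadjusted p under 0.05 to 7, and omitting the second WT vehicle or the second WT SI-2 library raised it to 2. The 2.22% of all genes belongs to the fit of all libraries and not to these fits. Set beside the vehicle library with the same number and line, each of the 4 SI-2 libraries had the lower cytosolic sum, by the values given above, and the numbers were not taken as pairs.

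In BR cells alone and in WT cells alone SI-2 also gave 0 synthetases called by edgeR, where 0% of 13896 genes were called in each, and 0 by DESeq2. At an unadjusted p under 0.05 there were 0 of 37 in both, against 1.2% of all genes in BR and 0.533% in WT. The cytosolic medians were -0.21 in BR and -0.12 in WT, and the mitochondrial medians -0.030 and -0.079. The cytosolic value in BR depended on single libraries, and was 0.085 or -0.41 when the first or the second vehicle library was left out, and -0.055 when the second SI-2 library was. In WT cells it was -0.035 when the first SI-2 library was left out. The test of whether the SI-2 effect differed between the lines called 0 synthetases and 0% of all genes, with 0 of 37 at an unadjusted p under 0.05 against 0.533% of all genes, and DESeq2 called 0 of the 37. The standard errors of that difference, from 0.21 to 0.47 in log2, leave differences of this size undetectable with 2 libraries a condition.

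The libraries numbered 2 were compared with those numbered 1 to find differences that follow the number. Opposite differences cancel in this comparison, and the cytosolic medians within conditions were 0.039 and 0.13 in WT and -0.48 and -0.33 in BR. No synthetase was called by edgeR, against 0.925% of the 13520 genes. At an unadjusted p under 0.05 there were 4, CARS, SARS2 and HARS among them, against 16.9% of all genes. DESeq2 called 3 at an adjusted p under 0.05, CARS and HARS among them, and called more of all genes than edgeR, as counted in the last section. The log2 fold change was on the lower side for 18 of 20 cytosolic and 10 of 17 mitochondrial genes, against 51% of all genes. Without the second BR SI-2 library it was so for 11 of 20 cytosolic and 10 of 17 mitochondrial genes, and HARS and CARS had log2 fold changes of -0.55 and -0.34. CARS and HARS were among the 3 synthetases lower in all 4 libraries numbered 2 than in all 4 numbered 1, against 6.08% of all genes, and no synthetase was higher in all 4, against 5.91%.

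HARS and CARS separated by library number, while their groups by line and by SI-2 overlapped. Such a gap on the lower side was found for 3 of 37 synthetases and for 6.08% of all genes. It is not read as particular to the synthetases. The CPM of HARS, the histidine enzyme, was 86.1 and 49.4 in WT vehicle, 64.3 and 52.9 in WT SI-2, 93.0 and 56.8 in vehicle-treated BR, and 66.5 and 54.2 in SI-2-treated BR. In each condition the first library was the higher, and the log2 fold change was -0.54 ± 0.13 (edgeR adjusted p = 0.0772). CARS, the cysteine enzyme, had CPM of 183 and 150, 162 and 148, 199 and 129, and 180 and 122 in the same order of conditions. Its log2 fold change was -0.39 ± 0.10 (edgeR adjusted p = 0.092). SARS2, the mitochondrial serine enzyme, had overlapping groups, with CPM of 8.59, 6.1, 7.74 and 7.18 in the first and 5.7, 6.62, 4.67 and 4.58 in the second libraries. QARS and HARS2 followed with log2 fold changes of -0.20 ± 0.11 and -0.23 ± 0.12 (edgeR adjusted p-values of 0.399 and 0.356). HARS and HARS2 lie head to head on chromosome 5, with start sites 85 bases apart in the RefSeq annotation of GRCh38.p14, on opposite strands. In HARS2 the second library was lower than the first in 3 of 4 conditions, by 0.43, 0.38 and 0.20 in log2 CPM in WT vehicle, WT SI-2 and BR SI-2, and 0.020 higher in BR vehicle.

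KARS, the lysine enzyme, makes its cytosolic and mitochondrial forms from 1 gene by alternative splicing, so that its gene count sums both. In the transcript table the cytosolic form (NM_005548, 597 residues by the coding bases of GENCODE) was above the mitochondrial form (NM_001130089, 625 residues) in every library. The ratio of their FPKM was 3.91 and 3.29 in WT vehicle, 2.27 and 3.43 in WT SI-2, 3.38 and 2.61 in vehicle-treated BR, and 2.8 and 2.61 in SI-2-treated BR. The lines overlapped, and the lowest ratio came from the first WT SI-2 library, where the KARS gene had its lowest WT level. Isoforms share reads, so these shares were not tested. Of the 37 genes, 22 had at least 2 transcripts with 10% or more of the gene's FPKM, and the form could differ between libraries: the main HARS transcript took 67.9% to 98.3% of the gene.

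Genes that work beside the synthetases were counted from lists. Of 15 tested scaffold proteins and cytosolic partners 0 were called for BR against WT, with 12 on the lower side and a median of -0.060. That median was -0.125 with the first WT SI-2 library omitted, and -0.0197, with 9 on the lower side, when the first BR SI-2 library was. It was -0.121 without the first BR vehicle and -0.0984 without the first WT vehicle library. The scaffold genes of the multisynthetase complex had log2 fold changes of 0.015 ± 0.098 (AIMP1), -0.060 ± 0.12 (AIMP2) and 0.16 ± 0.11 (EEF1E1), all with edgeR adjusted p-values of at least 0.536. TARSL2, a second cytosolic threonine enzyme that the naming rule leaves out, had a log2 fold change of -0.19 ± 0.15 (edgeR adjusted p = 0.586). Of 17 genes of mitochondrial tRNA charging and translation 0 were called, with 11 on the higher side and a median of 0.050, which was 0.00656 without the first BR vehicle and 0.0791 without the second BR SI-2 library. Of 78 mitochondrial ribosomal protein genes 0 were called, with 51 on the higher side and a median of 0.080. The mitochondrial ribosomal genes did not share the pattern of the cytosolic synthetases: 47 and 48 of 78 were above their own median in the first and second BR vehicle libraries. In the BR SI-2 libraries 34 and 51 were. In WT the numbers were 44 and 24 with vehicle and 41 and 23 with SI-2, so these genes varied between libraries as well.

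The amino acid response outside the synthetases was high and low in the same libraries as the cytosolic class. It was counted from a list of genes that GCN2 and ATF4 switch on when uncharged tRNA builds up. ATF4 itself, EIF2AK4 (which encodes GCN2) and GCN1 were also on the list. This list had been chosen with its values known. Of its 37 genes with a mean CPM of at least 1, 31 and 35 were above their own median in the WT vehicle libraries and 6 and 35 with SI-2. In BR the numbers were 28 and 2 with vehicle and 8 and 3 with SI-2. The first WT SI-2 library was low in both lists, and the first BR vehicle library was high in both. For BR against WT all 37 tested genes were on the lower side, with a median of -0.49, against 49.1% of all genes. Without the second BR SI-2 library 36 of 38 were, with a median of -0.40. A single gene was called lower, INHBE, which encodes an activin subunit, at -1.61 ± 0.25 (edgeR adjusted p = 0.0237). Its call was lost, with edgeR adjusted p-values from 0.0628 to 0.0946, when any of 5 libraries was left out (the second of each condition or the first BR SI-2). ATF4 itself had FPKM of 771 and 936 in WT vehicle, 530 and 902 in WT SI-2, 772 and 476 in vehicle-treated BR, and 522 and 457 in SI-2-treated BR. Its log2 fold change was -0.51 ± 0.22 (edgeR adjusted p = 0.321), with the first BR vehicle library inside the WT range.

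The other genes of this branch were on the same side and did not pass the test. ASNS, asparagine synthetase, had a log2 fold change of -0.63 ± 0.24, and TRIB3, a pseudokinase, -0.75 ± 0.18 (edgeR adjusted p-values of 0.28 and 0.118). ATF3 and CHAC1 had -1.35 ± 0.44 and -0.58 ± 0.28 (edgeR adjusted p-values of 0.224 and 0.377). DDIT3, the stress transcription factor CHOP, PHGDH of serine synthesis, EIF2AK4, which encodes GCN2, and its activator GCN1 lay between -0.23 and -0.056, all with edgeR adjusted p-values of at least 0.59. PSAT1 of serine synthesis was listed at a mean FPKM of 0.188 and was not tested. With SI-2 over both lines 0 of these 37 genes were called, 31 were on the lower side, and the median was -0.23. Without the second BR SI-2 library the median was -0.10, with 28 of 38 on the lower side.

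**Figure D5:**
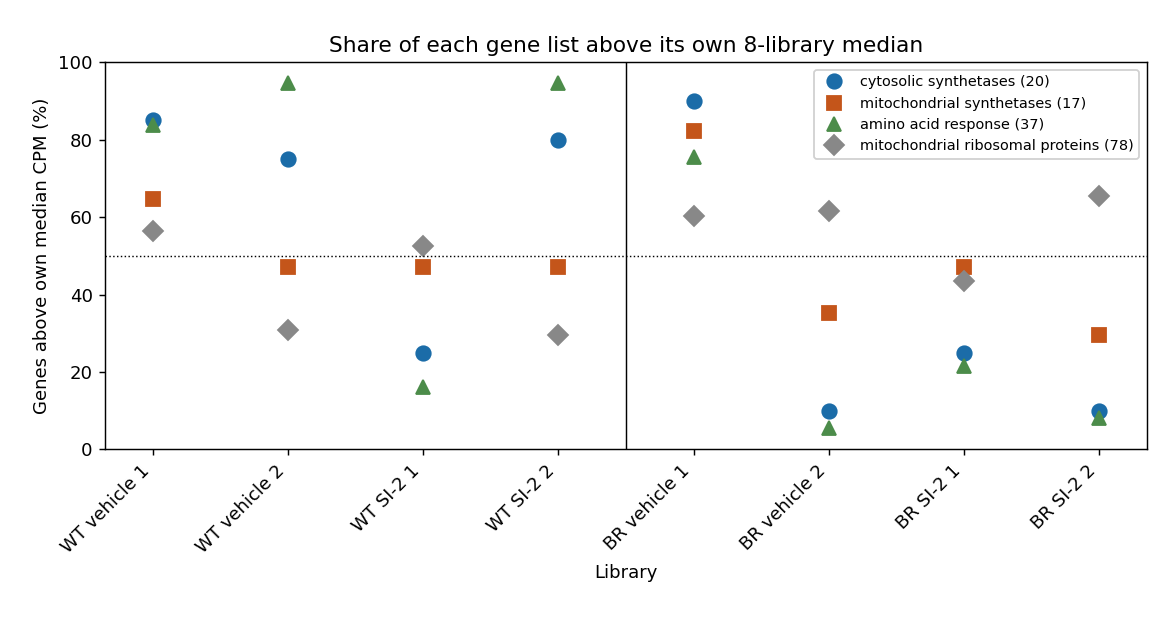
Percent of genes above their own 8-library median CPM in each library for the cytosolic synthetases (20), the mitochondrial synthetases (17), the amino acid response list (37) and the mitochondrial ribosomal proteins (78). The cytosolic synthetases and the amino acid response are above 70% in the same 4 libraries (both WT vehicle, second WT SI-2 and first BR vehicle) and at or below 25% in the other 4.

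Promoters were searched for the letters TGATGNAA on both strands (TTNCATCA on the other), a short form of the composite element through which ATF4 acts, with no other motif searched. The RefSeq table of GRCh38.p14 gave the 250 bases before and 50 after each start site for 30 of the 37 genes. The motif lay in the promoters of 7 of 16 cytosolic genes (43.8%) and of 1 of 14 mitochondrial genes (7.14%), against 4.46% of all genes in the table. By promoter the shares were 33.3% of 21, 5.56% of 18 and 3.62% of 35116. The windows below are read on the gene's strand with the motif in capitals, and are shown for where the match begins. Counted from 0 at the start site, it begins at -33 in GARS, -13 in IARS, -2 in CARS and -4 in MARS, and at -197 in YARS2, the mitochondrial tyrosine enzyme.
GARS, chr7:30594834-30594863, + strand: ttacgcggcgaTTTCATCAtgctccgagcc
IARS, chr9:92293692-92293721, - strand: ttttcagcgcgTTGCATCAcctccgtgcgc
CARS, chr11:3057407-3057436, - strand: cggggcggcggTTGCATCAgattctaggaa
MARS, chr12:57488053-57488082, + strand: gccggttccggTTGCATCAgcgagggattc
YARS2, chr12:32756076-32756105, - strand: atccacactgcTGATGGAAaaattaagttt
The other cytosolic genes with a match were AARS, NARS and TARS. The 7 cytosolic genes with the motif had a median log2 fold change of -0.20 for BR against WT, from -0.41 to -0.029. The 9 without it had a median of -0.17, from -0.40 to 0.20, so the ranges overlapped. Without the second BR SI-2 library the medians were -0.115 and -0.085. A match of letters is not a site of binding, and the windows come from a later build than the hg19 of the submitters' processing notes.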

How the data were processed

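RNA of 8 LP-1 libraries was sequenced by the authors on a BGISEQ-500. The deposited estimated counts per gene need not be whole, since shared reads were divided among genes: 24 of the 37 synthetases had whole counts in every library. FPKM, per length and depth, were computed by the authors. The submitters' processing notes name hg19, BWA, Bowtie2 and RSEM without versions. Their deposited comparison tables (log2 fold changes, p- and q-values) and 8 columns of averages were not used.

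Counts were rounded, filtered with filterByExpr and scaled by TMM (factors 0.9708 to 1.058). The test was edgeR's quasi-likelihood test (4.0.16, R 4.3.3), adjusted by Benjamini-Hochberg over all genes tested. Fits of 4 against 4 libraries held 13520 genes and a term only for the factor compared. The 4-condition fit held 13896 genes with a common dispersion of 0.0321. Standard errors came from the fold change and its F statistic. The steps were tested on simulated data. Alternatives were DESeq2 1.42.0, limma 3.58.1 on log2(FPKM + 1) and log2(FPKM + 0.1), other scalings, filters and model terms, and leaving out each library. Other values used Python 3.11.15.

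Members and lists were chosen with earlier results of these data known. Per-library values were given for the 3 genes of each class with the lowest unadjusted p for the line and for the replicate number, the highest and lowest of each class, FARSA, FARSB, GARS and KARS. INHBE was named after its value was seen. The single values of 1 member are not reported here. Replicate numbers were not taken as pairs. FPKM are scaled to depth and cover the RNA of all cells. A smaller share of cells with a transcript and less of it per cell cannot be told apart.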

Additional observations from a re-analysis of the deposited data

Results flagged for a closer look

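Dixon's test was run on the CPM of each synthetase within the 4 WT and within the 4 BR libraries, 74 groups in all, and 4 held a library far from the others. Chance alone would give about 1 in 20, and 4 of 74 is near that share, so the 4 are not read as a pattern. KARS was 166 CPM in the first WT SI-2 library against 225 to 235 in the other WT libraries. VARS, the valine enzyme, was 335 CPM in the first BR vehicle library against 249 to 254 in the other BR libraries. CARS2, the mitochondrial cysteine enzyme, was 22.0 CPM in that library against 17.7 to 18.3. HARS2 was 27.7 CPM in the first BR SI-2 library against 24.1 to 24.5. The first BR vehicle library accounts for 2 of the 4. It had the highest summed cytosolic FPKM, and a link between these was not tested.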

How the results depend on the processing

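In the 8 comparisons no alternative called a synthetase except DESeq2 for replicate 2 against 1. DESeq2 called 746 genes there, 3 of them synthetases, among them CARS and HARS at log2 fold changes of -0.393 and -0.536. Of the values of single genes and class summaries recomputed, none reversed a called result, and 1 called gene outside the family, INHBE, lost its call in 5 of 8 fits with a library left out. Counts over all genes moved more. For BR against WT over both treatments 49 became 399 with DESeq2 and 155 with the replicate block, and 21 to 125 with a library left out. For replicate 2 against 1, 125 became 196 with upper-quartile scaling, 746 with DESeq2, 62 and 56 with limma on log2(FPKM + 1) and log2(FPKM + 0.1), 0 with condition terms, and 0 to 93 with a library left out. For BR against WT with vehicle, 0 became 28 with DESeq2, 3 with no filter, 4 with limma on log2(FPKM + 0.1), and 1 each with upper-quartile scaling, the CPM filter, limma on log2(FPKM + 1), the replicate block and only the libraries compared. With SI-2, 1 became 31 with DESeq2, 3 with only the libraries compared, 0 with either limma, and 0 to 67 with a library left out. SI-2 against vehicle gave 1 with DESeq2 in BR, in WT and for the difference between them, and 0 to 67 in BR with a library left out. The correlations of replicate deviations between conditions ran from -0.0913 to 0.38, with 4 of 6 over 0.1 and the highest within WT (0.38) and within BR (0.333), so the numbers were shared only in part. The replicate block changed no other call. It held 1 replicate term common to both lines, and no replicate term for each line was fitted. The cytosolic replicate medians were 0.039 and 0.13 in WT and -0.48 and -0.33 in BR. A common term cannot take up differences of opposite sign, so pairing within a line was not tested. The causes were not tested.

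With a library left out, the cytosolic medians ran from -0.356 to 0.0643 (BR against WT with vehicle), from -0.41 to 0.0852 (SI-2 in BR) and from -0.283 to 0.212 (the difference of the SI-2 effects). The mitochondrial medians ran from -0.0478 to 0.0495 (BR against WT), -0.0806 to 0.129 (with vehicle), -0.0982 to 0.041 (with SI-2), -0.208 to 0.0107 (SI-2 in BR), -0.12 to 0.0111 (SI-2 in WT) and -0.185 to 0.0894 (the difference). The log2 ratio of BR to WT for the mitochondrial class was -0.0186 from mean centred log2 CPM. Summed FPKM of that class was on average on the other side, with overlapping lines. It was 309.9, 299.5, 289.2 and 304.2 in BR and 301.7, 250.8, 293.1 and 261.9 in WT. The side of the mitochondrial class thus depended on the summary used. Depth was nearly equal, and 2 libraries a condition set the limit: a lone remaining library was assumed to vary like the other groups.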
